A study of Mus musculus with 24 samples.

Results

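Type I interferon response genes were followed as a set of 31 genes chosen by name as known targets of type I interferon. The choice was made with earlier results of these data known. All 31 were found by gene symbol among the 36528 gene models that were counted. They were read out by RNA sequencing in cells sorted from mouse Peyer's patches, lymphoid nodules of the gut wall. The sorted cells were fibroblastic reticular cells (FRC), the fibroblasts that form the scaffold of the tissue, and endothelial cells of high endothelial venules (HEV), the vessels by which lymphocytes enter it. Control mice were unperturbed. PEG mice drank polyethylene glycol, an osmotic agent, at 10% (w/v) for 3 days, with the stated aim of lowering fluid flow. FRC gave 7 control and 7 PEG libraries, and HEV gave 4 control and 6 PEG libraries, each from 1000 cells. The labels name no strain, sex, age or genetic change, and they do not settle whether FRC and HEV libraries share mice. A library is named here by its group and its number in the labels, as in FRC control 4.

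Type I interferons bind a receptor made of IFNAR1 and IFNAR2, and the kinases JAK1 and TYK2 then activate STAT proteins, STAT2 among them. With IRF9 they form a complex that binds the interferon-stimulated response element (ISRE) in promoters and turns on genes that sense, bind or degrade viral nucleic acid, block viral entry and release, or feed back on the signal. Interferon gamma uses another receptor and acts through the gamma-activated site (GAS). Many of the 31 genes also answer to interferon gamma or to interferon regulatory factors alone, so their level does not name a ligand. In the gut wall such genes are known to be held at a resting level by signals from the microbiota.

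Promoter sequences show what these genes share apart from their level. RefSeq windows of 300 bases around the annotated start (assembly GRCm38.p6) were matched for 22 of the 31 genes. Zbp1, Dhx58, Oas2, Mx1, Mx2, Usp18, Rtp4, Ifi27l2a and Parp14 had none. The ISRE core, spelled as GAAA, any 2 bases and GAAA again and sought on both strands, stood in the windows of 11 of the 22 genes, against 3.99% of 27025 genes. The GAS, spelled TTCNNNGAA and equal to its own reverse complement, stood in 4 of the 22, against 9.55% of genes. The longer ISRE, which is the core followed by CT and every match of which overlaps a match of the core, stood in 6 of the 22, against 0.303% of genes. Stretches of 60 bases from 6 genes with the core are shown, chosen to include genes that were and were not higher in HEV. The Isg15 stretch lies at chr4:156200852-156200911 on the minus strand, 93 to 34 bases before the start. Ifit1 is shown at chr19:34640770-34640829 on the plus strand, 119 to 60 bases before the start, and Bst2 at chr8:71537558-71537617 on the minus strand, 145 to 86 bases before it. Rsad2 is at chr12:26456528-26456587, Oas1a at chr5:120907526-120907585 and Oas3 at chr5:120777690-120777749, all on the minus strand, ending 76, 1 and 31 bases before their starts. Each is written 5′ to 3′ in the direction of its gene, and capitals mark the ISRE core on either strand (TTTC, any 2 bases and TTTC is the core read from the other strand).
Isg15: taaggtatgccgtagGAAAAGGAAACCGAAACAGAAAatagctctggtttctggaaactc
Ifit1: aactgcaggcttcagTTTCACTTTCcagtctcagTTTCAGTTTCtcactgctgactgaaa
Bst2: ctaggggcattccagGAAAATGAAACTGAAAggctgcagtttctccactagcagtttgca
Rsad2: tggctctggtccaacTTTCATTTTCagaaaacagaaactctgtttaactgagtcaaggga
Oas1a: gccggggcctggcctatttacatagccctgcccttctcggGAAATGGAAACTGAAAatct
Oas3: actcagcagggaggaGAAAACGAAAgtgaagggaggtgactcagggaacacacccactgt
Within these stretches Isg15 held 3 overlapping matches, Ifit1, Bst2 and Oas1a held 2, and Rsad2 and Oas3 held 1.

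Totals of reads assigned to genes ran from 12416032 to 21710946 in all libraries but HEV PEG 16, which had 3115003. The sorted populations carried their own markers. HEV endothelium markers (12 genes) summed to between 18590 and 23210 CPM (a gene's count scaled to the library's effective total, TMM-normalised) in HEV control and between 110.4 and 496 in FRC control. FRC markers (12 genes) summed to between 22470 and 39480 CPM in FRC control and between 20.5 and 507 in HEV control, with HEV control 9 the highest. Not all markers were well read: 10 of the 12 FRC markers and 11 of the 12 HEV markers had enough reads to be tested among controls. Pericyte and smooth muscle markers (6 genes) were also high in FRC control, from 3064 to 4780 CPM. Libraries 1 to 9 stood apart from libraries 10 to 24. On the first principal component the FRC libraries 1 to 9 scored between -50.8 and -25.0 and the others between 18.5 and 43.0. The HEV libraries scored between -58.3 and -49.9 and between 13.8 and 37.3. The sequencing pool used as the covariate, inferred from the index pairs, holds libraries 1 to 8, 9 to 16 and 17 to 24, so it places HEV control 9 with libraries that stood apart from it. Comparisons were therefore also run within each set of libraries and, as an alternative chosen after seeing the data, with the set (1 to 9 or 10 to 24) as the covariate in place of the pool. With the set as covariate 18 of 30 genes tested were higher and 2 lower in HEV among controls and 15 and 2 under PEG (edgeR). Under PEG all 7 FRC libraries carry 1 i5 index and all 6 HEV libraries another, so the index and the cell type cannot be told apart there.

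The 31 genes spanned a wide range of levels, and a single gene, Ifi27l2a, held the largest share of their reads in FRC. On the authors' length-scaled values, which allow genes to be set beside each other, Ifi27l2a came first in FRC control with a median of 1496, followed by the antiviral membrane tether Bst2 at 226 and Ifit3 at 50.97. In HEV control Bst2 came first at 323, followed by Rtp4 at 177, Ifit1 at 119 and Ifi27l2a at 102, so 3 genes stood before Ifi27l2a there. Ifi27l2a took between 51.2% and 65.9% of all reads of the 31 genes in FRC control libraries and between 2.69% and 3.51% in HEV control. Under PEG it took between 44.9% and 54.4% in FRC and between 1.78% and 3.80% in HEV. All 31 genes together took between 0.268% and 0.402% of a library's reads in FRC control and between 0.330% and 0.459% in HEV control, which overlapped. Without Ifi27l2a the other 30 genes together took between 0.128% and 0.157% of a library's reads in FRC control. In HEV control they took between 0.319% and 0.443%, which did not overlap. Ifi27l2a was itself lower in HEV (below), so leaving it out lowers mainly the FRC share, and the separation is no independent result. At the low end, Oas3 had a median of 0 in both control groups, and Oas2, Oasl1 and Mx1 were below 0.5 in FRC control.

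**Figure D1:**
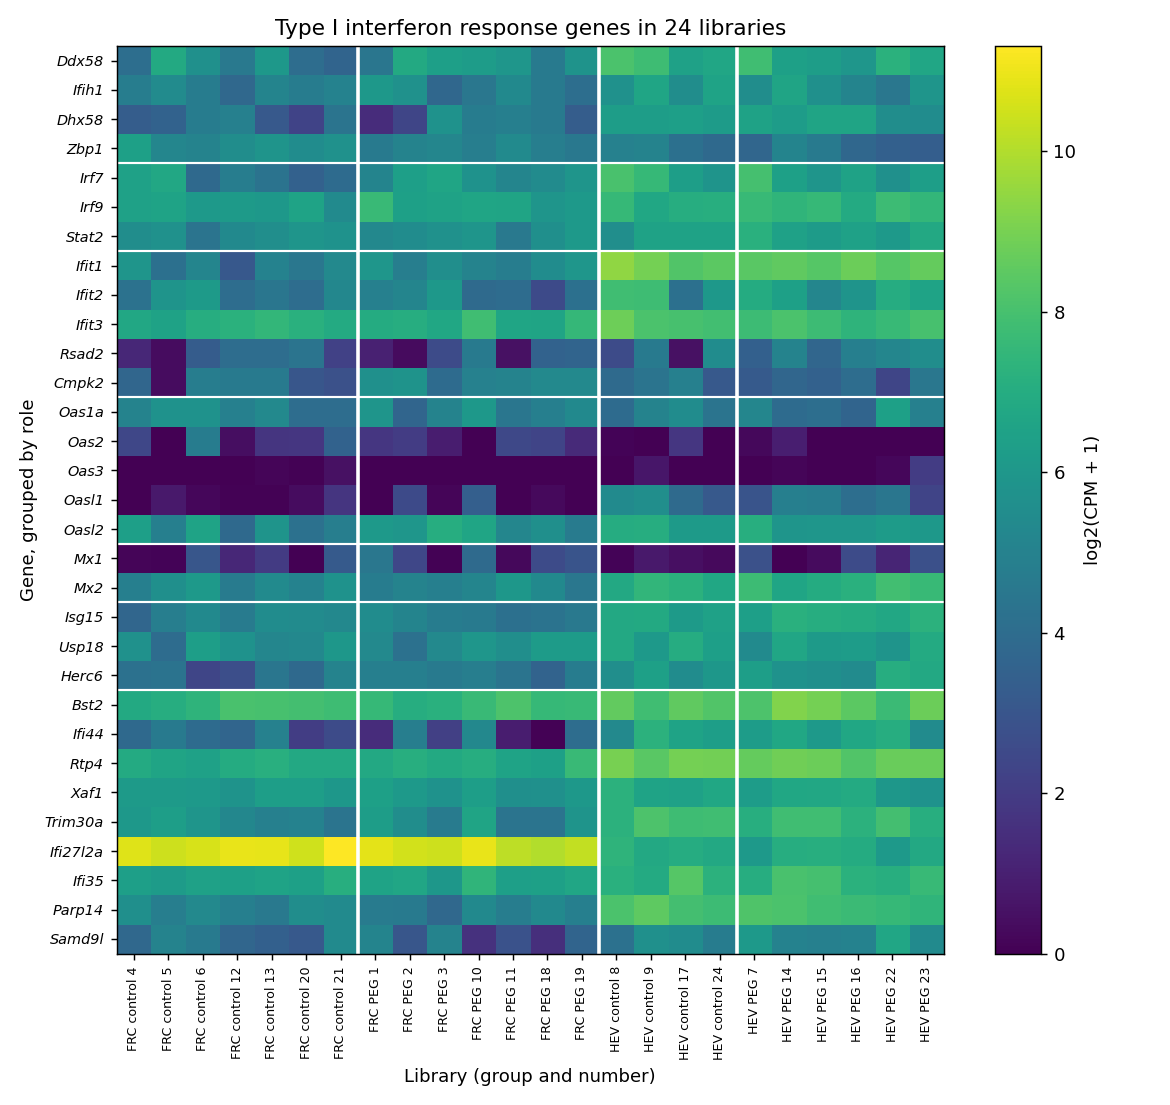
Level of the 31 genes (rows, grouped by role) in the 24 libraries (columns, grouped by cell type and treatment), as log2(CPM + 1) on the colour scale. Ifi27l2a is bright in all 14 FRC libraries, at 1043 to 2543 CPM, and Oas3 is dark almost everywhere, with 0 reads in the 7 FRC PEG libraries.

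The median gene of the list was higher in HEV than in FRC in every library. Taken over the 31 genes in 1 library, the median log2(CPM + 1) lay between 4.48 and 5.33 in FRC control, 4.89 and 5.29 in FRC PEG, 6.40 and 6.84 in HEV control, and 6.16 and 6.58 in HEV PEG. The FRC and HEV ranges did not overlap, while the control and PEG ranges overlapped in both cell types. These levels are shares of a library, so fewer cells expressing a gene and less of its RNA per cell cannot be told apart.

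Comparing HEV with FRC control libraries asks how these genes differ between the cell types without PEG. Of 30 genes tested, 18 were higher in HEV, 1 was lower and 11 passed in neither direction (edgeR quasi-likelihood test, Benjamini-Hochberg adjusted p under 0.05 over 15743 genes). Over all genes tested, 24.6% were called, 10.4% higher and 14.2% lower. At an unadjusted p under 0.05 there were 21 higher and 2 lower of the 30, against 34.9% of all genes. The median log2 fold change was 1.26 over the 30 genes and -0.16 over all genes. In 14 of the 30 genes every HEV control library lay above every FRC control library, against 8.77% of all genes, and in 1 gene every HEV library lay below, against 10.7%. Under PEG, 14 of 30 genes were higher in HEV and 3 lower, with a median log2 fold change of 1.00 over the 30 genes and -0.08 over all 14991 genes. The shares over all genes were 26.8% called, 12.5% higher and 14.4% lower. At an unadjusted p under 0.05 there were 18 higher and 4 lower, against 36.3% of all genes. Under PEG 8 genes lay wholly above and 1 wholly below, against 8.05% and 9.22% of all genes. The libraries of the control and the PEG comparison are different ones. In both comparisons 11 genes were higher, against 8.37% of the 14580 genes tested in both, and 1 was lower, against 10.1%. The counts by role below are parts of these counts and stand beside the same shares over all genes.

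Markers of other cells also moved between the cell types. Here a marker at 0 had no reads in any library of the group named. The 4 general leukocyte markers summed to between 70.2 and 172 CPM in HEV control and between 2.34 and 93.2 in FRC control. Each had reads in both groups, but FRC control 6 and 20 had none for 2 of the 4, and HEV control 8 and 17 none for 1. Among controls 1 of the 4 was called higher in HEV. Under PEG they summed to between 38.5 and 154 CPM in HEV and between 7.88 and 92.3 in FRC, again with 1 of 4 called higher. T cell markers (8 genes) summed to between 23.2 and 70.3 CPM in HEV control and between 0.657 and 24.0 in FRC control, where Cd8a was at 0. In HEV control each had reads in at least 1 library. HEV control 9, with the highest sum, and FRC control 4, with the lowest, had no reads for 6 of the 8. Of 3 tested 1 was called higher in HEV and 1 lower. Under PEG they summed to between 45.7 and 133 CPM in HEV and between 5.59 and 16.5 in FRC, where Cd3e, Cd3d, Cd3g and Cd8a were at 0, and 2 of 3 tested were called higher. Myeloid markers (8 genes) summed to between 63.0 and 247 CPM in HEV control, with Adgre1 at 0, and between 33.6 and 217 in FRC control, and 1 of 6 tested was called higher in HEV. Under PEG they summed to between 28.5 and 95.3 CPM in HEV, with Itgax and Fcgr3 at 0, and between 67.7 and 274 in FRC, and 0 of 5 tested were called (edgeR), with 1 higher and 1 lower at an unadjusted p under 0.05. The part of these cells in the results was not tested. Markers of plasmacytoid dendritic cells, known producers of type I interferon, gave smaller sums in HEV among controls. Their 7 genes summed to between 0.196 and 5.75 CPM in HEV control, with Siglech, Ccr9, Cox6a2 and Klk1 at 0 in all 4 libraries. In FRC control they summed to between 12.6 and 45.4 CPM, with Cox6a2 at 0, and 1 of 2 tested was called lower in HEV. Single libraries had no reads for 3 to 5 of the 7 genes in FRC control and for 4 to 6 in HEV control. The sums thus rest on a few genes and do not count cells. Only 1 of the 7 passed the low-count filter when FRC PEG and FRC control were compared. Under PEG the ranges overlapped, at 1.195 to 43.6 CPM in HEV, with HEV PEG 16 the highest, and 12.2 to 38.0 in FRC. Siglech, Ccr9 and Cox6a2 were at 0 in HEV PEG, and Siglech and Cox6a2 in FRC PEG. Of 4 tested under PEG 1 was called higher in HEV and 1 lower. Their part was not tested.

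**Figure D2:**
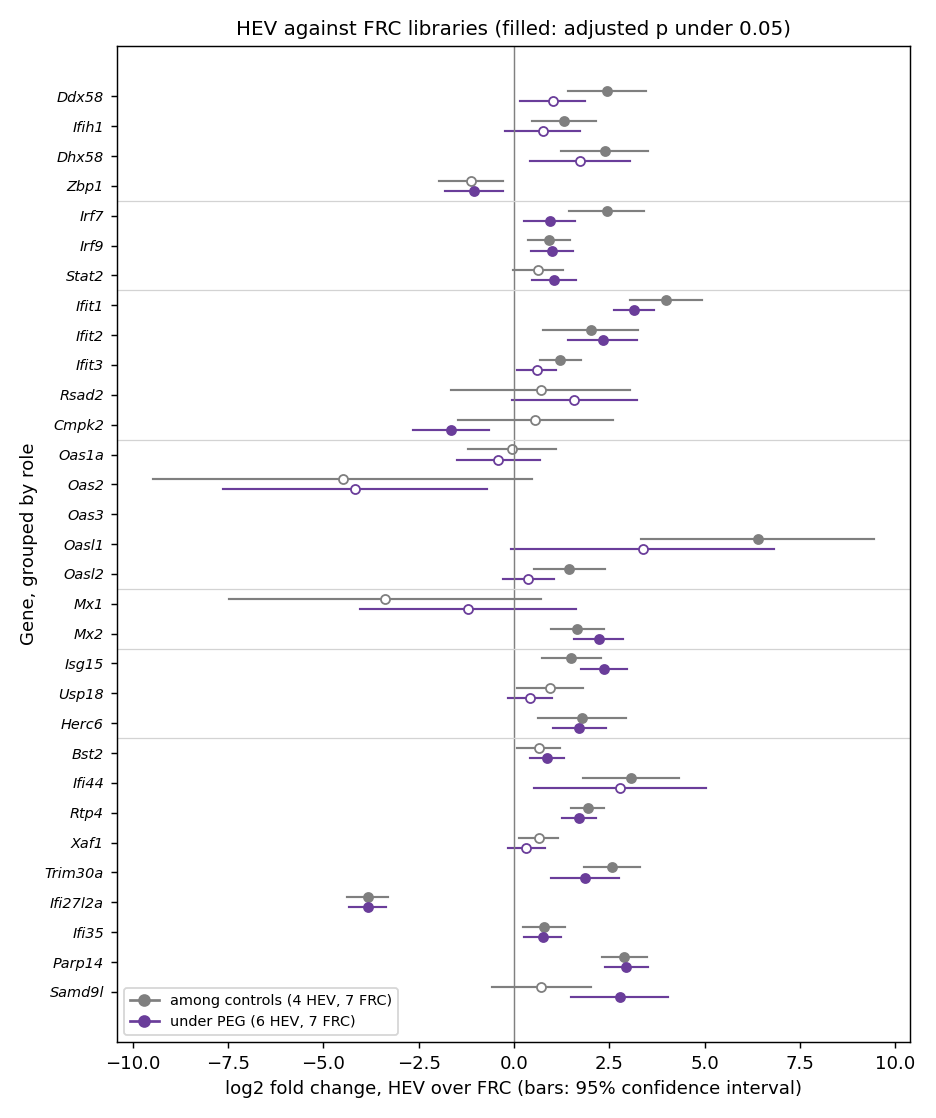
Log2 fold change of HEV over FRC for 30 of the 31 genes, grouped by role, among controls (grey) and under PEG (purple), with 95% confidence intervals and filled points at an adjusted p under 0.05. Most points lie to the right of 0, the 11 genes filled in both colours on that side include Ifit1, Parp14 and Rtp4, and Ifi27l2a lies at -3.84 in both.

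Among the IFIT proteins and their neighbours, which bind foreign RNA or make antiviral nucleotides, 3 of 5 genes were higher in HEV controls. Ifit1, which binds RNA lacking the cap methylation of the host, read 695, 490.0, 299.8 and 356 CPM in HEV control 8, 9, 17 and 24. FRC control libraries ran from 7.61 over a median of 31.1 to 58.3 CPM. Under PEG, HEV ran from 318 over 357 to 437 CPM and FRC from 26.4 over 44.8 to 61.0. Every HEV library was above every FRC library in both conditions. Its log2 fold change was 3.99 ± 0.43 (SE) among controls and 3.15 ± 0.24 under PEG, with adjusted p of 3.63e-05 and 4.34e-07 (edgeR). It was called in each of the alternative analyses, and within libraries 1 to 9 and 10 to 24 the change among controls was 4.03 and 3.69.

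Ifit2, its paralog, read 228, 220.5, 17.2 and 65.2 CPM in HEV control 8, 9, 17 and 24, against 15.3, a median of 20.4 and 70.3 in FRC control. HEV control 17 and 24 lay inside the FRC range and the groups overlapped. Under PEG the HEV libraries read 35.1 to 126 CPM (median 89.5) and the FRC libraries 4.81 to 64.0 (median 17.1). In log2 terms HEV over FRC was 2.01 ± 0.57 among controls (adjusted p = 0.0228) and 2.33 ± 0.42 under PEG (adjusted p = 0.000796). Among controls the call was lost without HEV control 8, HEV control 9, FRC control 12 or FRC control 13 (adjusted p from 0.0586 to 0.131, edgeR). Within libraries 10 to 24 the change was 0.88 (adjusted p = 0.368) and within libraries 1 to 9 it was 2.23 (adjusted p = 0.0611). Ifit3 passed among controls (1.21 ± 0.25, adjusted p = 0.00354) but had an adjusted p of 0.0805 under PEG, where it passed without FRC PEG 10 or HEV PEG 16 (0.0163 and 0.0471, edgeR). Its near-identical neighbour Ifit3b can share reads with it, so its count is uncertain.

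Rsad2 (viperin) and Cmpk2, neighbouring genes whose enzymes make an antiviral nucleotide, gave 1 call, of Cmpk2 under PEG. Rsad2 ranged from 0.284 to 19.6 CPM in FRC control and from 0.441 to 44.8 in HEV control and was called in neither comparison, although it passed under PEG without FRC PEG 10 (2.73, adjusted p = 0.0394). Cmpk2 read 14.1, 19.4, 29.1 and 8.04 CPM in HEV control 8, 9, 17 and 24, within the FRC control range of 0.284 to 26.7 (median 12.2) except for HEV control 17. Under PEG it ran from 14.7 over 39.2 to 55.0 CPM in FRC and from 4.20 over 11.3 to 21.7 in HEV, with overlap. Its log2 fold change under PEG was -1.66 ± 0.47 (adjusted p = 0.0159, edgeR), a call lost without HEV PEG 7 (-1.46, adjusted p = 0.0551). Within libraries 10 to 24 it was -1.45 (adjusted p = 0.0366), and within libraries 1 to 9, with 1 HEV library that is assumed to vary like the others, it was -2.33 (adjusted p = 0.308). Among controls its change was 0.56 ± 0.93 (adjusted p = 0.733).

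The transcription factors of the response were higher in HEV, 2 of 3 among controls and 3 of 3 under PEG. Irf7, which drives interferon genes and many of their targets, read 266, 192, 80.5 and 56.3 CPM in HEV control 8, 9, 17 and 24. The FRC controls ran from 10.5 over a median of 18.7 to 110.3 CPM. The groups overlapped because FRC control 4 and 5 read 86.9 and 110.3 CPM while the other 5 read 26.9 or less. PEG libraries ran from 49.7 over 82.3 to 252 CPM in HEV and from 33.5 over 53.9 to 98.9 in FRC. The fitted log2 change was 2.43 ± 0.45 among controls (adjusted p = 0.00202) and 0.94 ± 0.31 under PEG (adjusted p = 0.0369). The PEG call was lost without any 1 of FRC PEG 2, 11 or 18 or HEV PEG 7, 16 or 23, with the smallest change without HEV PEG 7 (0.59, adjusted p = 0.28). With no covariate neither passed (1.88, adjusted p = 0.0535, and 0.82, adjusted p = 0.134). Within libraries 10 to 24 the change was 1.92 among controls and 0.64 under PEG (adjusted p = 0.0196 and 0.134, edgeR). In libraries 1 to 9 it was 1.73 and 1.79 (adjusted p = 0.229 and 0.183).

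Irf9, the DNA-binding partner of STAT2, read 192, 107, 131 and 134 CPM in HEV control 8, 9, 17 and 24, all above the FRC control range of 42.1 to 94.0 (median 71.1). Under PEG the HEV libraries ran from 120.3 over 185 to 215.5 CPM and the FRC libraries from 57.9 over 92.0 to 199, and FRC PEG 1 alone reached into the HEV range. HEV over FRC gave a log2 fold change of 0.92 ± 0.25 among controls and 0.99 ± 0.26 under PEG (adjusted p = 0.0182 and 0.00982, edgeR). Without HEV control 8 the control call was lost (0.81, adjusted p = 0.0952). Within libraries 1 to 9 and 10 to 24 the change among controls was 0.87 and 0.93, past the threshold in neither set (adjusted p = 0.204 and 0.0825). Stat2, its partner, passed under PEG (1.05 ± 0.27, adjusted p = 0.00923, lost without HEV PEG 7 at 0.0875 and within libraries 10 to 24 at 0.101) and among controls changed by 0.63 ± 0.30 (adjusted p = 0.169).

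The Mx GTPases, dynamin-like proteins that trap viral particles, parted in level. Mx2 read 113, 171, 149.9 and 105 CPM in HEV control 8, 9, 17 and 24, all above the FRC control range of 25.2 to 66.1 (median 41.3). PEG libraries ran from 100.1 over 171 to 236 CPM in HEV and from 21.2 over 32.7 to 61.7 in FRC, again without overlap. On the log2 scale the change was 1.67 ± 0.32 among controls and 2.22 ± 0.30 under PEG (adjusted p = 0.00238 and 6.81e-05, edgeR). Within libraries 1 to 9 the change among controls was 1.59 (adjusted p = 0.0865) and within libraries 10 to 24 it was 1.72 (adjusted p = 0.0097). Mx1, which carries inactivating deletions in most laboratory strains, was near the limit of detection in HEV control, at 0.0655, 0.726, 0.368 and 0.215 CPM in libraries 8, 9, 17 and 24. FRC control ran from 0 over 1.40 to 8.26 CPM. It was called in neither comparison of the cell types, with intervals of the log2 fold change from -7.49 to 0.70 among controls and from -4.05 to 1.63 under PEG.

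In the ISG15 system, a ubiquitin-like tag with its ligase and its protease, 2 of 3 genes were higher in HEV in both conditions. Isg15, the tag, read 112, 116, 71.1 and 88.9 CPM in HEV control 8, 9, 17 and 24, all above the FRC control range of 12.3 to 44.95 (median 38.2). Under PEG, HEV ran from 83.6 over 128 to 153 CPM and FRC from 17.1 over 23.4 to 43.7, without overlap. Its log2 fold change was 1.50 ± 0.36 among controls and 2.36 ± 0.28 under PEG (adjusted p = 0.00878 and 2.23e-05, edgeR). The control call was lost without HEV control 8 (1.25, adjusted p = 0.0662), and within libraries 1 to 9 and 10 to 24 the change was 2.11 and 1.05 (adjusted p = 0.07 and 0.062). Herc6, the ligase that attaches the tag in mice, ran from 43.9 to 85.3 CPM in HEV control and from 4.22 to 32.03 in FRC control. In log2 terms HEV over FRC was 1.78 ± 0.53 among controls (adjusted p = 0.0273, lost without HEV control 8, 9 or 24 or FRC control 20, at 0.0532 to 0.14) and 1.71 ± 0.33 under PEG (adjusted p = 0.0012, edgeR). Usp18, the protease that removes the tag and dampens the receptor, ran from 69.1 to 126 CPM in HEV control and from 15.0 to 80.7 in FRC control, and passed in neither comparison.

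Sensors of foreign nucleic acid gave 3 calls of 4 among controls. Ddx58 (RIG-I) ran from 88.6 to 271.5 CPM in HEV control and from 11.4 to 117 in FRC control. Ifih1 (MDA5) ran from 45.5 to 98.3 against 13.1 to 42.3 CPM, and Dhx58 (LGP2) from 73.6 to 83.6 against 3.82 to 29.6 CPM. Their log2 fold changes were 2.44 ± 0.46, 1.30 ± 0.38 and 2.38 ± 0.52 (adjusted p = 0.00228, 0.0273 and 0.00561, edgeR). The Ifih1 call was lost without HEV control 9 or 24 or FRC control 20 (adjusted p from 0.0559 to 0.152). The changes within libraries 10 to 24 were 1.71, 1.37 and 2.32 (adjusted p = 0.1, 0.0799 and 0.0512), and within libraries 1 to 9 they were 2.03, 1.28 and 2.34 (adjusted p = 0.15, 0.179 and 0.0699), so none of the 3 passed within either set. With the set as covariate all 3 passed among controls, with a Ddx58 change of 1.84 (adjusted p = 0.0172). Under PEG none of the 3 passed, with changes of 1.01, 0.75 and 1.73 and adjusted p of 0.0776, 0.263 and 0.0514. Without FRC PEG 1, Ddx58 and Dhx58 passed (adjusted p = 0.0497 and 0.026), and Dhx58 also passed without FRC PEG 3 or 18 (adjusted p = 0.00603 and 0.0491) and with the set as covariate (0.0413).

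Zbp1, a sensor of left-handed nucleic acid that can trigger cell death, lay on the other side. It read 30.6, 32.8, 17.2 and 13.6 CPM in HEV control 8, 9, 17 and 24, against 32.5, a median of 46.1 and 86.0 in FRC control. HEV control 9 alone lay above the lowest FRC library. Under PEG the HEV libraries ran from 9.36 over 12.5 to 33.1 CPM and the FRC libraries from 21.8 over 27.7 to 41.1. The fitted log2 change was -1.12 ± 0.39 among controls (adjusted p = 0.0523) and -1.04 ± 0.35 under PEG (adjusted p = 0.0426, edgeR). Leaving out FRC control 5 or 6 brought the first past the threshold (adjusted p = 0.0427 and 0.0392). With the set of libraries as covariate the first passed (-1.23, adjusted p = 0.0291) and the second did not (-0.89, adjusted p = 0.117). Leaving out any 1 of 10 of the 13 PEG libraries lost the second, with FRC PEG 1 or 10 or HEV PEG 14 as the exceptions and adjusted p of 0.0596 to 0.118 for the rest. Within libraries 10 to 24 the change was -1.73 among controls (adjusted p = 0.014) and -0.71 under PEG (adjusted p = 0.324). In libraries 1 to 9 it was -0.67 and -1.37 (adjusted p = 0.597 and 0.409).

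The OAS family, enzymes whose products switch on an RNA-degrading nuclease, and its OAS-like relatives gave 2 calls among controls and 0 under PEG. Oasl1, a brake on Irf7 translation, read 42.1, 47.6, 14.1 and 7.90 CPM in HEV control 8, 9, 17 and 24. In FRC control it ran from 0 over 0.162 to 2.36 CPM, with 59 reads in all 7 libraries. The groups did not overlap. Under PEG, HEV ran from 4.01 over 18.2 to 29.0 CPM and FRC from 0 over 0.123 to 9.75, with FRC PEG 2 and 10 at 4.75 and 9.75 and the other 5 at 0.232 or less. HEV over FRC gave a log2 fold change of 6.39 ± 1.39 among controls (adjusted p = 0.00539, lost without HEV control 8 at 0.0672) and 3.38 ± 1.60 under PEG (adjusted p = 0.147, edgeR). Without FRC PEG 2 the PEG change was 4.59 (adjusted p = 0.0347), and DESeq2 and limma-voom called it under PEG (3.44 and 5.04, adjusted p = 0.0291 and 0.00594). Oasl1 did not pass the low-count filter when FRC PEG and FRC control were compared.

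Oas2, a classical OAS enzyme, did not pass that filter when HEV PEG and HEV control were compared. It read 0.0655, 0, 2.50 and 0 CPM in HEV control 8, 9, 17 and 24 and from 0 over 0 to 0.924 in HEV PEG. FRC control ran from 0 over 2.44 to 25.9 CPM and FRC PEG from 0 over 2.48 to 4.48. Its log2 fold change of HEV over FRC was -4.50 (95% interval -9.48 to 0.48) among controls and -4.17 (-7.62 to -0.72) under PEG, with adjusted p of 0.189 and 0.0725. It passed without HEV control 17 (-7.75, adjusted p = 0.0474, edgeR), without FRC PEG 10 (-4.82, adjusted p = 0.0253) and without HEV PEG 14 (-5.91, adjusted p = 0.0195). DESeq2 called it in both (-4.86 and -4.50, adjusted p = 0.0154 and 0.0247). Oas3, the largest of the family, passed the filter in no comparison. It had 10 reads in HEV control 9 and none in the other 3 HEV control libraries, and 43 reads in HEV PEG 23 and at most 2 in any other HEV PEG library. FRC control 13, 20 and 21 held 2, 1 and 7 reads, and the 7 FRC PEG libraries held 0, which allows a level of up to 0.0245 CPM over that group. Its promoter window, shown above, holds the ISRE core. Oas1a, which shares much sequence with its tandem copies so that its uniquely mapped reads are uncertain, ran from 15.5 to 54.3 CPM in FRC control and from 14.5 to 44.1 in HEV control. On the log2 scale the change was -0.05 (-1.21 to 1.11) among controls and -0.41 (-1.50 to 0.68) under PEG. Oasl2 passed among controls (1.46 ± 0.43, adjusted p = 0.0276, lost without HEV control 9, 17 or 24 or FRC control 20 at 0.0504 to 0.116 and with the set as covariate at 0.059) and had an adjusted p of 0.442 under PEG.

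Of the 9 other induced genes, 5 were higher in HEV among controls and 6 under PEG. Parp14, an ADP-ribosyl transferase, read 278, 365, 242 and 212 CPM in HEV control 8, 9, 17 and 24. FRC control libraries ran from 22.8 over a median of 39.1 to 49.4 CPM. PEG libraries ran from 168 over 218 to 293.5 CPM in HEV and from 12.95 over 26.5 to 40.9 in FRC. The cell types did not overlap in either condition. Its log2 fold change was 2.90 ± 0.27 among controls and 2.94 ± 0.26 under PEG (adjusted p = 1.18e-05 and 1.69e-06, edgeR). Within libraries 1 to 9 and 10 to 24 it was 3.08 and 2.67 among controls.

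Rtp4, a chaperone of receptors with antiviral activity, read 506, 338, 487 and 482 CPM in HEV control 8, 9, 17 and 24. The FRC controls ran from 87.5 over 114 to 142 CPM, well below. PEG libraries ran from 304 over 423 to 461 CPM in HEV and from 84.4 over 116 to 199 in FRC, without overlap. In log2 terms HEV over FRC was 1.94 ± 0.20 among controls and 1.70 ± 0.21 under PEG (adjusted p = 2.69e-05 and 3.2e-05, edgeR), with 2.08 and 1.94 among controls within libraries 1 to 9 and 10 to 24. Trim30a, a member of a ubiquitin ligase family with close paralogs that can share its reads, read 156, 282, 224 and 226 CPM in HEV control 8, 9, 17 and 24. In FRC control it ran from 19.4 over 37.0 to 80.7 CPM. Under PEG, HEV ran from 134 over 189.9 to 242 CPM and FRC from 19.4 over 45.1 to 96.6. All HEV libraries were above all FRC libraries in both conditions. The log2 fold change was 2.58 ± 0.33 and 1.87 ± 0.42 (adjusted p = 0.000147 and 0.00366), and 1.71 and 2.90 among controls within libraries 1 to 9 and 10 to 24.

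The remaining genes of the group gave smaller or less even differences. Ifi35 ran from 119 to 320.1 CPM in HEV control and from 72.6 to 136 in FRC control. The fitted log2 change was 0.78 ± 0.25 among controls and 0.75 ± 0.23 under PEG, with adjusted p of 0.0423 and 0.0253. Leaving out any 1 of 9 of the 11 control libraries, all but HEV control 9 and 24, ended the control call (adjusted p from 0.0518 to 0.117, edgeR), and leaving out FRC PEG 11 or 18 or HEV PEG 7 ended the PEG call (0.0535 to 0.0649). Bst2 passed under PEG (0.86 ± 0.20, adjusted p = 0.00532) and among controls reached 0.65 ± 0.26 (adjusted p = 0.0931), passing there without HEV control 9 (0.94, adjusted p = 0.0177) and with the set as covariate (0.77, adjusted p = 0.0167). Ifi44 passed among controls (3.06 ± 0.58, adjusted p = 0.00222), and under PEG all 6 HEV libraries lay above all 7 FRC libraries with a change of 2.78 ± 1.04 and an adjusted p of 0.0687 (0.0348 and 0.0418 without FRC PEG 2 or 10). Samd9l passed under PEG (2.77 ± 0.60, adjusted p = 0.00293) and changed by 0.71 ± 0.59 among controls. Xaf1 passed in neither, although all 4 HEV control libraries, at 155.6, 94.4, 87.2 and 105 CPM, lay above the FRC control range of 55.6 to 80.0. Without FRC control 13 or 20 it passed among controls (adjusted p = 0.0482 and 0.0489, edgeR).

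Ifi27l2a, a small interferon-induced membrane protein, was the one gene lower in HEV in both conditions. It read 164.5, 114, 129 and 113 CPM in HEV control 8, 9, 17 and 24. FRC control libraries ran from 1417 over a median of 1745 to 2543 CPM. Under PEG, HEV ran from 67.4 over 118 to 135 CPM and FRC from 1043 over 1388 to 1931. Every FRC library was at 1043 CPM or more and every HEV library at 164.5 or less. HEV over FRC gave a log2 fold change of -3.84 ± 0.25 among controls and -3.84 ± 0.22 under PEG (adjusted p = 5.44e-07 and 2.49e-08, edgeR). Within libraries 1 to 9 and 10 to 24 it was -3.48 and -4.05 among controls and -4.58 and -3.54 under PEG, past the threshold in each.

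**Figure D3:**
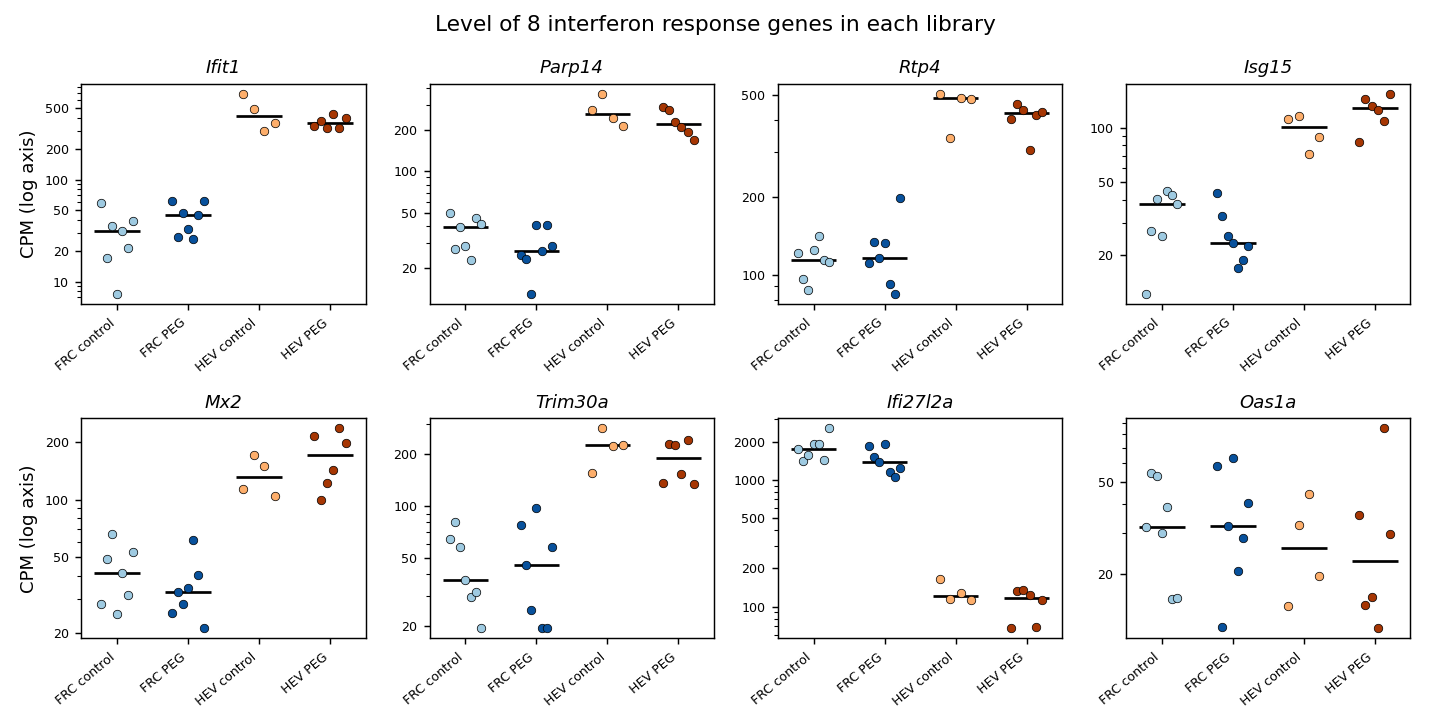
Level of 8 of the genes in CPM on log axes, 1 point per library, with bars at the group medians. Ifit1, Parp14, Rtp4, Isg15, Mx2 and Trim30a are higher in HEV than in FRC with no overlap, Ifi27l2a is lower in HEV with no overlap, and the groups overlap for Oas1a.

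Not every call was equally firm. Among controls, Ifit1, Rtp4, Trim30a, Parp14 and Ifi27l2a were called in each of 23 alternative analyses, and under PEG Ifit1, Mx2, Rtp4, Parp14 and Ifi27l2a were called in each of 24. The count of genes higher in HEV controls fell from 18 to 12 without HEV control 8, was 8 within libraries 10 to 24 and 6 within libraries 1 to 9. HEV control 8 and 9 each held the group's highest value for 10 of the 24 genes with at least 10 reads in every library, HEV control 17 for 4 and HEV control 24 for 0. Under PEG the count of higher genes was 13 within libraries 10 to 24, 4 within libraries 1 to 9 and 11 without HEV PEG 7, and the count of lower genes was 1 without HEV PEG 7. A call among controls that was missing under PEG, or the reverse, is not shown to be a difference, since the direct test of the difference called 0 of 30 genes (edgeR).

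Beside these calls stand the promoters. The ISRE core stood in 3 of 8 genes with a window among those higher in both conditions (Ifit1, Isg15 and Trim30a), in 3 of 6 called higher among controls only, in 2 of 3 called higher under PEG only and in 3 of 4 called in neither (Rsad2, Oas1a and Oas3). Of the genes lower in HEV, Cmpk2 had a window, which held neither element.

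Comparing PEG with control libraries asks whether these genes differed after PEG. Fluid flow itself is not among the values. In FRC, 0 of 29 genes tested passed, as did 0 of 14595 genes in all (0%, edgeR). The 0% over all genes is edgeR's: DESeq2 called 57 of the 1008 genes for which it gave an adjusted p. Of the 29 it called 0, with an adjusted p for only 2 of them, and limma-voom called 0. With no filter on low counts edgeR called 177 of 28700 genes. At an unadjusted p under 0.05 there was 1 higher gene, Cmpk2, and 1 lower, Zbp1, while 6.78% of all genes had such a p. The median log2 fold change was 0.10 over the 29 genes and 0.01 over all genes, with 16 above 0 and 13 below. In none of the 29 did the groups separate, against 0.0548% of all genes with PEG wholly above and 0.048% with PEG wholly below.

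The 4 genes of smallest p in FRC were Zbp1, Cmpk2, Irf7 and Ifi27l2a, whose values in every group are given above. Zbp1 fell short of the threshold with a log2 fold change of -0.74 ± 0.26 (unadjusted p = 0.011, adjusted p = 0.611, edgeR). All 7 PEG libraries lay below the control median of 46.1 CPM, and the ranges of 21.8 to 41.1 and 32.5 to 86.0 overlapped. Cmpk2 had a log2 fold change of 1.56 ± 0.63 (unadjusted p = 0.0247, adjusted p = 0.672). All 7 PEG libraries, at 14.7 CPM or more, lay above the control median of 12.2, in a control group that ran from 0.284 in FRC control 5 to 26.7 in FRC control 6. Irf7 changed by 0.86 ± 0.44 (adjusted p = 0.772), and all 7 PEG libraries lay above the control median of 18.7 CPM but within the control range. Within libraries 10 to 24 the Irf7 change was 1.43 and within libraries 1 to 9 it was 0.05, with adjusted p of 0.202 and 0.999 (edgeR). Ifi27l2a changed by -0.31 ± 0.16 (adjusted p = 0.782), with medians of 1388 CPM under PEG and 1745 in controls, by -0.54 within libraries 10 to 24 and by 0.02 within libraries 1 to 9. The 15 intestinal epithelium markers summed to between 80.9 and 5413 CPM (median 515) in FRC PEG. In FRC control they summed to between 45.5 and 1930 CPM (median 144.5). Each had reads in some libraries of both groups but not in all. Markers without reads were most in FRC control 6, with 9 of the 15, and in FRC PEG 1, with 6. All 11 that were tested had a positive log2 fold change, and 0 were called. The part of epithelial RNA in these values was not tested.

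In HEV, 0 of 29 genes passed, as did 0 of 14308 genes in all (0%, edgeR), and DESeq2 and limma-voom called 0 of the 29. Over all genes DESeq2 called 116 of 14169 with an adjusted p, and edgeR with no filter called 141 of 27394. At an unadjusted p under 0.05 there were 0 of the 29, against 6.19% of all genes. The median log2 fold change was -0.29 over the 29 genes and 0.01 over all genes, with 10 above 0 and 19 below. The groups separated in none of the 29, against 0.447% and 0.426% of all genes above and below. The 4 genes of smallest p were Irf9 (0.45 ± 0.22, unadjusted p = 0.0653), Mx1 (3.05 ± 1.67, unadjusted p = 0.0942), Xaf1 (-0.51 ± 0.28, unadjusted p = 0.097) and Irf7 (-0.51 ± 0.29, unadjusted p = 0.107), with adjusted p of 0.822 to 0.829 in edgeR. For Irf9, 5 of 6 PEG libraries lay above the control median of 132 CPM. Mx1 read 0.0655 to 0.726 CPM in HEV control and from 0 over 3.14 to 6.00 in HEV PEG, where libraries 14 and 15 had 0 and 5 reads and the other 4 had 16 to 81. Xaf1 ran from 53.8 over 89.9 to 118 CPM in HEV PEG, against 155.6, 94.4, 87.2 and 105 in HEV control 8, 9, 17 and 24. For Irf7, HEV PEG 7 at 252 CPM was as high as HEV control 8 at 266, and the change was 0.10 within libraries 10 to 24, 0.14 within libraries 1 to 9 and 0.11 with the set as covariate, so -0.51 lies outside both within-set values. Epithelium markers summed to between 43.7 and 3827 CPM (median 1673) in HEV PEG and between 14.5 and 817.5 (median 632) in HEV control, with positive changes in 12 of 12 tested and 0 called, and their part was not tested.

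**Figure D4:**
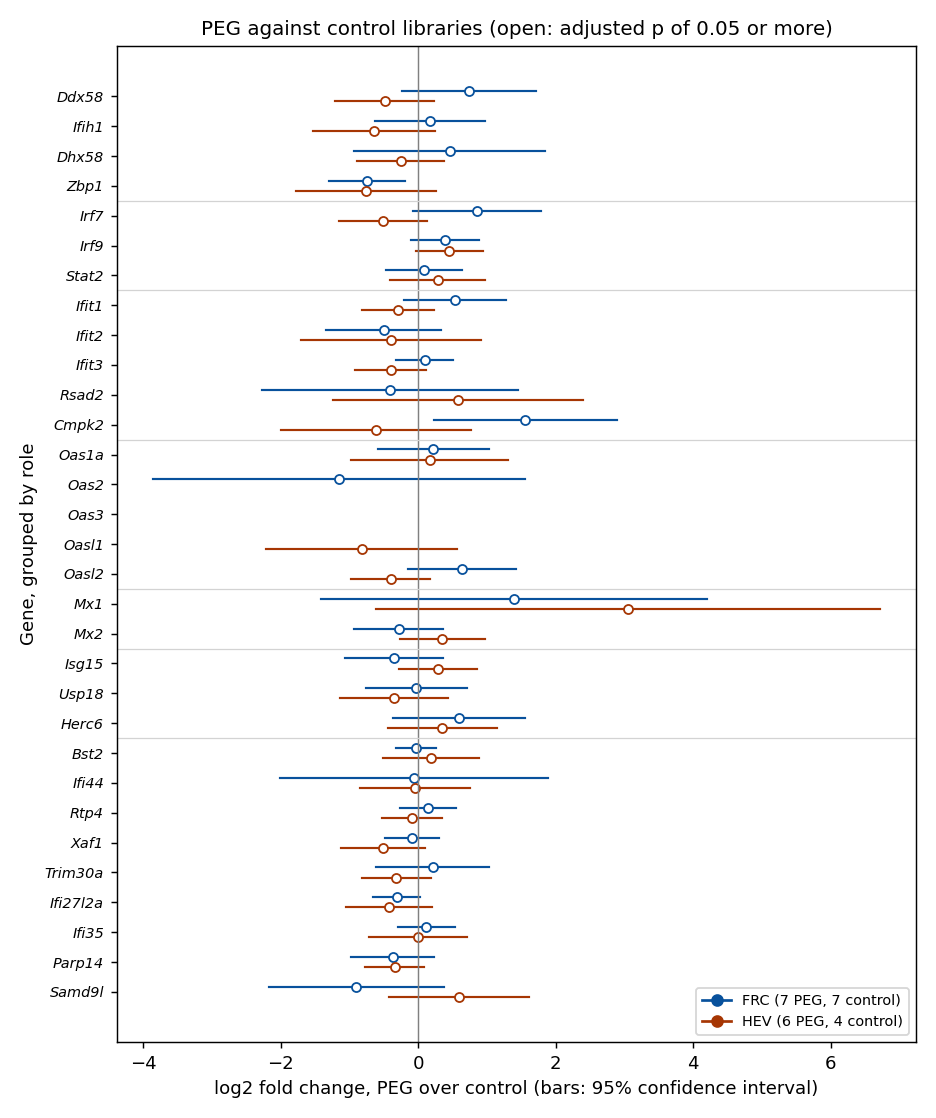
Log2 fold change of PEG over control in FRC (blue) and HEV (brown), grouped by role, with 95% confidence intervals and every point open because none reached an adjusted p under 0.05. Intervals for Bst2 and Rtp4 are narrow, and the interval for Mx1 in HEV runs from -0.61 to 6.72.

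The intervals show what these comparisons could resolve. In FRC the 95% interval of the log2 fold change lay within 1 of 0 for 12 of 29 genes, and in HEV for 14 of 29. In FRC its narrowest reach was 0.29 to either side, for Bst2, the median 0.79 and the widest 2.81, for Mx1. In HEV it was 0.43 for Parp14, a median of 0.69 and 3.67 for Mx1. A change of 2-fold is thus outside the interval for Bst2, Rtp4, Stat2, Irf9, Parp14, Ifit3, Mx2 and Ifi35 in both cell types. For every other gene tested it is inside the interval in at least 1 cell type. This holds in both for Rsad2, Cmpk2, Mx1, Irf7, Ddx58, Ifit2, Herc6, Samd9l and Zbp1.

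Whether PEG acted unequally on the cell types was tested as an interaction over 18203 genes in all 24 libraries. It was called for 0 of 30 genes, against 0.011% of all genes (edgeR), and DESeq2 and limma-voom called 0 as well. Over all genes DESeq2 called 350 of 17088 with an adjusted p and limma-voom 0. At an unadjusted p under 0.05 there were 3, against 10.1% of all genes, all with a lower PEG effect in HEV. They were Irf7 (-1.40 ± 0.58, unadjusted p = 0.0228), Cmpk2 (-2.12 ± 0.91, unadjusted p = 0.029) and Oasl2 (-1.05 ± 0.50, unadjusted p = 0.0481), with edgeR adjusted p of 0.408, 0.421 and 0.492. Ifit3 came next (-0.60 ± 0.33, adjusted p = 0.554). Oasl2 ran from 13.6 over 28.6 to 93.5 CPM in FRC control and from 25.3 over 60.7 to 133 in FRC PEG. It read 127, 131, 70.5 and 71.2 CPM in HEV control 8, 9, 17 and 24 and ran from 59.3 over 62.5 to 137 in HEV PEG. Ifit3 ran from 89.7 over 131 to 177 CPM in FRC control, from 96.4 over 123 to 230.1 in FRC PEG and from 164 over 218 to 272 in HEV PEG, and read 454, 274, 258 and 234 in HEV control 8, 9, 17 and 24. All groups that were set against each other by treatment overlapped for both genes. For Irf7 the difference was -1.34 within libraries 10 to 24 and 0.09 within libraries 1 to 9.

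Ligands that would start the response were close to absent from these cells. The 20 genes of type I and III interferons held 59 reads in all 24 libraries together, of 375809380 reads, and 11 of them held 0, which allows a level of up to 0.00798 CPM over all libraries. Ifnb1 held 21 reads, of which 20 were in HEV PEG 23. Ifng, the type II interferon made mainly by lymphocytes, held 75 reads, of which 49 were in FRC PEG 10. None of these genes passed the low-count filter in any comparison.

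The receptor and signalling genes differed in part between the cell types, and some were read at low or uneven levels. Of 34 pathway genes tested among controls, from a list of 57, 12 were higher in HEV and 2 lower, against 10.4% and 14.2% of all genes. Under PEG 14 of 33 were higher and 3 lower, against 12.5% and 14.4% of all genes. Of the receptor chains, Ifnar2 had a median of 195 CPM in FRC control and 394 in HEV control (log2 fold change 0.95 ± 0.20, adjusted p = 0.00488, and 0.69 ± 0.22, adjusted p = 0.0298, under PEG, edgeR). Ifnar1 changed by 0.23 ± 0.25 among controls (adjusted p = 0.59) and by 1.11 ± 0.37 under PEG (adjusted p = 0.0382). The PEG calls of both chains were lost on leaving out single libraries, at adjusted p of 0.0505 to 0.154 for Ifnar2 and of 0.0535 to 0.114 for Ifnar1. The shared chain Il10rb was lower in HEV under PEG (-0.69 ± 0.20). The kinase Jak1 was higher in HEV in both comparisons (1.74 ± 0.19 and 1.70 ± 0.23), as was Jak2 (2.24 and 1.86), while Tyk2 was called in neither (-0.31 ± 1.14 and 0.96 ± 0.54, with 0.09 among controls within either set of libraries).

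Upstream of the ligands, the DNA-sensing adaptor Sting1 stood out. It ran from 27.0 to 51.7 CPM in FRC control and from 290.1 to 481 in HEV control, with a log2 fold change of 3.44 ± 0.21 among controls and 2.83 ± 0.39 under PEG (adjusted p = 3.78e-07 and 8.2e-05, edgeR). Its partner Cgas, the enzyme that senses DNA, was called higher in both (5.32 ± 1.29 and 2.13 ± 0.67) but ran from 0.216 to 129 CPM in FRC control alone, and the control call was lost without HEV control 9 (adjusted p = 0.122) and the PEG call without FRC PEG 18 or 19 or HEV PEG 22 (0.053 to 0.072). Among controls the call was also lost with no covariate (0.65, adjusted p = 0.825), with limma-voom (1.14, adjusted p = 0.211) and with the set as covariate (3.92, adjusted p = 0.0542), and within libraries 1 to 9 the change was -0.18. Under PEG it was lost with no covariate (1.06, adjusted p = 0.298) and within libraries 1 to 9 (0.58, adjusted p = 0.75, edgeR). Tlr3, the receptor of double-stranded RNA, passed under PEG (4.17 ± 0.99, adjusted p = 0.00578) and not among controls (1.28 ± 0.68), the adaptor Myd88 among controls (1.95 ± 0.24) and the kinase Tbk1 under PEG (1.18 ± 0.30). Mavs, the adaptor of RIG-I and MDA5, was called in neither (-1.70 ± 1.12 and -1.16 ± 0.42, the latter passing without HEV PEG 7 or 16 at 0.0238 and 0.0316), nor was the transcription factor Irf3 (-0.24 ± 0.27 and -0.11 ± 0.29). The kinase Ikbke was lower in HEV in both comparisons (-6.39 ± 1.54 and -3.60 ± 1.06).

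Irf1, a factor induced mainly by interferon gamma that binds ISRE-like elements, ran from 433 over 483 to 794.5 CPM in FRC control and read 4634, 4718, 4393 and 4128 in HEV control 8, 9, 17 and 24. Every HEV library was above every FRC library in both conditions. On the log2 scale the change was 2.98 ± 0.17 among controls and 2.94 ± 0.16 under PEG (adjusted p = 2.65e-07 and 1.19e-08, edgeR), with 3.07 and 2.95 among controls within libraries 1 to 9 and 10 to 24. Irf5, a factor best known from myeloid cells, was lower in HEV, at 0 to 0.131 CPM in HEV control against 1.83 to 19.95 in FRC control (-6.30 ± 1.38 and -6.58 ± 1.19). Of all genes tested in both comparisons, 8.37% were higher in HEV in both, and of 9 inhibitors of the pathway 5 were. These were the receptor feedback proteins Socs3 (2.47 ± 0.26 and 2.62 ± 0.23) and Socs1 (1.64 ± 0.51 and 1.91 ± 0.47), the phosphatase Ptpn2 (1.12 and 1.07), the DNA exonuclease Trex1 (2.64 and 1.75) and the nucleotide hydrolase Samhd1 (1.45 and 1.73).

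Genes known for their answer to interferon gamma were set beside the 31. This list too was chosen with earlier results of these data known, so its counts are no independent test. Of its 23 genes, 20 were higher in HEV and 1, Gbp8, was lower, both among controls and under PEG. Over all genes tested, 10.4% were higher and 14.2% lower among controls, and 12.5% and 14.4% under PEG. The median log2 fold change was 2.34 among controls and 1.95 under PEG, against 1.26 and 1.00 for the type I list. The 3 of smallest p among controls were the guanylate-binding protein Gbp4 (5.26 ± 0.21) and the GTPases Tgtp1 (4.15 ± 0.22) and Tgtp2 (3.50 ± 0.22), the latter near-identical in sequence so that their reads are uncertain. In the comparisons of PEG with control, 0 of 22 of these genes passed in FRC and 0 of 23 in HEV (edgeR). At an unadjusted p under 0.05 there were 3 higher and 0 lower in FRC, against 6.78% of all genes in either direction. In HEV there were 1 higher and 3 lower, against 6.19%. Their promoters held the ISRE core in 10 of 16 genes with a window and the GAS in 7 of 16. Counts and medians over lists describe the lists and were not tested against each other.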

How the data were processed

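RNA from 1000 sorted cells per library was sequenced, and 24 libraries of 4 groups were used. Counts are whole numbers of uniquely mapped reads per gene model, made by the authors after quality filtering and removal of ribosomal and adapter reads, aligned with GSNAP to mm9 per the submitters' processing notes. The protocol text names a human build instead, and the gene annotation and tool versions are not given in the sources used here. The deposited RPKM values were divided by the authors' size factor per library, per the file headers, and served only to order genes within a group. Gene identifiers were matched to RefSeq symbols for 85.0% of models, holding 97.3% of reads.

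Counts were tested with edgeR 4.0.16 in R 4.3.3 (TMM, filterByExpr with a count minimum of 10, robust quasi-likelihood test, two-sided, Benjamini-Hochberg over all genes tested, called under 0.05). A sequencing pool inferred from recurring index pairs (libraries 1 to 8, 9 to 16 and 17 to 24) was the covariate. It places library 9 apart from libraries 1 to 8, with which it stood on the first principal component, so that set was an alternative covariate, added after seeing the data. DESeq2 1.42.0 and limma 3.58.1, other scalings, filters and covariates, each set of libraries alone and leaving out each library were alternatives. The edgeR fit was also run on simulated counts with known fold changes and no pool or set effect. The outcome of that run is not reported here, and no result above rests on it. Levels are log2(CPM + 1) or CPM. Labels do not say that libraries of a group came from separate mice, so p-values measure the spread between libraries, which may be technical. FRC and HEV libraries may share mice, which the fits do not model.

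Members and lists were chosen with earlier results of these data known. Values per library are given for the 10 genes of smallest p among controls of those called between the cell types in both conditions, for genes lower in HEV, for the 4 of smallest p in each PEG comparison and for genes under the filter. The pathway lists hold 1 gene that is not reported here. Promoters are RefSeq windows of GRCm38.p6, a build other than that of the counts. Markers of other cells that were looked at are those of T, B, plasma, myeloid, plasmacytoid dendritic and epithelial cells, leukocytes in general, lymphatic endothelium and pericytes or smooth muscle. B cell markers summed to between 16.6 and 31.5 CPM in HEV control and between 4.84 and 35.1 in FRC control, plasma cell markers to between 8.17 and 20.0 and between 9.56 and 75.3, and lymphatic markers to between 36.5 and 140 and between 2.49 and 35.1.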

Additional observations from a re-analysis of the deposited data

Results flagged for a closer look

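In 11 of 122 groups of 4 to 7 libraries, 1 library stood far from the others by Dixon's criterion, which chance meets in about 1 in 20 groups. Stat2 was low in FRC control 6, at 19.47 CPM against 40.11 to 58.54 in the others, and low in HEV control 8, at 46.88 CPM against 90.3 to 91.57. Oas2 was high in HEV control 17, at 2.501 CPM against 0 to 0.06547, and in HEV PEG 14, at 0.9235 CPM against 0 to 0.169. Oas3 was read at 0.6052 CPM in HEV control 9, where the others had 0, and at 3.025 CPM in HEV PEG 23, where the others had 0 to 0.1585. Oasl2 stood at 136.6 CPM in HEV PEG 7 against 59.27 to 73.25. Herc6 stood at 11.06 CPM in FRC PEG 18 against 19.44 to 28.55. Rtp4 was low in HEV control 9, at 338.4 CPM against 482.2 to 505.7, and in HEV PEG 16, the library of lowest depth, at 304.3 CPM against 401.8 to 461.3. Ifi35 was high in FRC control 21, at 136.1 CPM against 72.59 to 94.16.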

How the results depend on the processing

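The count of genes higher in HEV among controls was 18, 8 within libraries 10 to 24 and 6 within libraries 1 to 9, and 12 to 17 with 1 library left out. The count lower was 1, 2 with the submitters' size factors, a count minimum of 50, no covariate, the set of libraries as covariate (chosen after seeing the data), all 24 libraries in 1 model or libraries 10 to 24 alone, 3 with DESeq2, and 1 to 2 with 1 library left out. Under PEG the counts were 14 and 3, 4 and 1 within libraries 1 to 9, and 11 to 17 and 1 to 4 with 1 library left out. All counts for PEG against control and for the interaction stayed at 0. Single log2 fold changes changed sign in these settings, and the cause was not tested. Within libraries 10 to 24 this held for Irf7 in HEV under PEG (0.10), and among controls for Oas1a (0.31), Ifnar1 (-0.031) and Tyk2 (0.093). Within libraries 1 to 9 it held for Ifi27l2a in FRC under PEG (0.016), Irf7 in HEV under PEG (0.14) and in the interaction (0.087), Tyk2 (0.089), Irf3 (0.24) and Cgas (-0.18) among controls, and Oas1a (0.047) and Tyk2 (-0.084) between the cell types under PEG. It also held among controls for Rsad2 with limma-voom (-0.057) and Tyk2 with no covariate (0.058), the set as covariate (0.060) or all 24 libraries (0.31), and for Irf7 in HEV under PEG with the set as covariate (0.11). With 1 library left out, changes among controls ran from -0.055 to 0.45 for Ifnar1, from -0.44 to 0.57 for Oas1a, from -0.28 to 1.34 for Rsad2 and from -1.24 to 0.56 for Tyk2. Under PEG they ran from -0.26 to 0.11 for Irf3, from -1.93 to 0.058 for Mx1 and from -0.75 to 0.10 for Oas1a. With a pseudocount of 10 the median log2 level was 5.42 in FRC PEG and 5.46 in FRC control. The longer ISRE stood in 6 promoters. The model with the i5 index beside the pool could not be fitted between the cell types under PEG, where index and cell type coincide. No paired analysis was possible because the labels do not say which libraries, if any, came from the same mouse. Libraries 1 to 9 hold 1 HEV PEG library, which is assumed to vary like the others. Depth limits Oas2, Oas3, Oasl1 and Mx1, with few or 0 reads in most libraries of at least 1 group.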
